A study of Mus musculus with 2 samples.

Results

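The genes described here sense DNA damage or repair it, and they were compared between gene-trapped and revertant Flk-1-positive early mesodermal cells made from mouse embryonic stem cells. The list names 45 genes. A probe was taken as a member when its symbol in the array's gene annotation, or a synonym of that symbol in a RefSeq gene table, was on the list, and 44 of the 45 had a probe, among 16388 named genes in all. The transcript of Trp53, the gene of p53 itself, was not analysed here, and only its promoter window was read. Each of the 44 had 1 probe, and all 44 were above background on both arrays, background being the mean of the blank spots plus 2 SD.

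In the gene-trapped cells both alleles of AU019823 were disrupted by gene trapping, in which a cassette placed inside a gene breaks off its transcript. The revertant cells carry a genotype that the labels describe as nearly wild type. Both kinds of stem cell had been cocultured with OP9, a mouse bone marrow stromal line that favours blood formation, and the cells with Flk-1 (the product of Kdr) on their surface had been collected by sorting; the labels give 4 days of coculture in one field and day 4.5 in another. RNA of 300000 gene-trapped and 350000 revertant cells was measured on 1 one-colour array each. There was no replicate, so no p-value or standard error can be given, precision is limited by having so few arrays, and array, culture and genotype cannot be told apart. The labels also give each sample a code of its own; should the codes mean clones, the effect of the clone and that of the genotype cannot be told apart either.

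DNA damage is met by several systems that work side by side. Sensor kinases such as Atm and Atr halt the cell cycle through Chek1, Chek2 and p53, while separate enzyme sets cut out damaged bases, bulky adducts and mismatches, rejoin broken ends or copy the lost sequence from a sister chromatid. Embryonic cells divide quickly, and many repair genes are transcribed as part of the same E2F programme that serves DNA replication. p53 raises the transcripts of some repair genes as well as those of cell cycle arrest.

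Differences are log2 values of normalized signal, gene-trapped minus revertant. No member reached a 2-fold difference in either direction, a size passed upward by 0.335% and downward by 1.08% of the 13714 named genes above background on both arrays. The normalization adds an offset that shrinks differences of dim genes, and with a smaller offset, with no background correction or in the authors' deposited table Ercc5 and Polk did pass 2-fold. At 1.5-fold, 6 of 44 members (13.6%) were higher in gene-trapped cells and 0 were lower, against 2.29% of all genes higher and 3.53% lower. The 6 were Ercc5, Polk, Msh6, Ung, Apex1 and Mdm2, and they belong to 5 different pathway groups. The differences of all 44 ran from -0.44 for Rad52 to 0.97 for Ercc5, with a median of 0.04 beside 0.01 for all genes, and 26 members lay above the median of all genes.

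The comparison of the shares depends on brightness and on scaling. All 6 higher members were among the 35 members at or above the median brightness of all genes (17.1%), and of all genes that bright 4.39% were higher and 6.74% lower by 1.5-fold. With the arrays scaled to a common median in place of equal distributions, 4 members were higher and 0 lower, against 171 (1.25%) and 717 (5.23%) of all genes, beside 314 and 484 in the main setting. The number of members above the median of all genes was then 21, and their own median was -0.00097 beside 0.01 for all genes. Scaling to the 75th percentile moved the median of all genes to 0.15, and values in that setting are read against it: the median of the members was 0.14 and 21 of them lay above. By the authors' deposited table, 1.5-fold was passed upward by 11 members and downward by 2, against 8.83% and 10.9% of all genes there. The median of the members thus lay above that of all genes in the main setting. It lay below in the median and 75th percentile scalings, which differ by the same amount for every gene and so give a single result. With cyclic loess, in which the scaling varies with signal, it was 0.02 beside -0.00073 for all genes, with 25 members above. It also lay above that of all genes under the other background settings and in the authors' deposited table. In each scaling the gap was smaller than the technical spread of control spots given at the end. Ercc5, Polk, Msh6 and Ung stayed past 1.5-fold in every scaling.

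**Figure D1:**
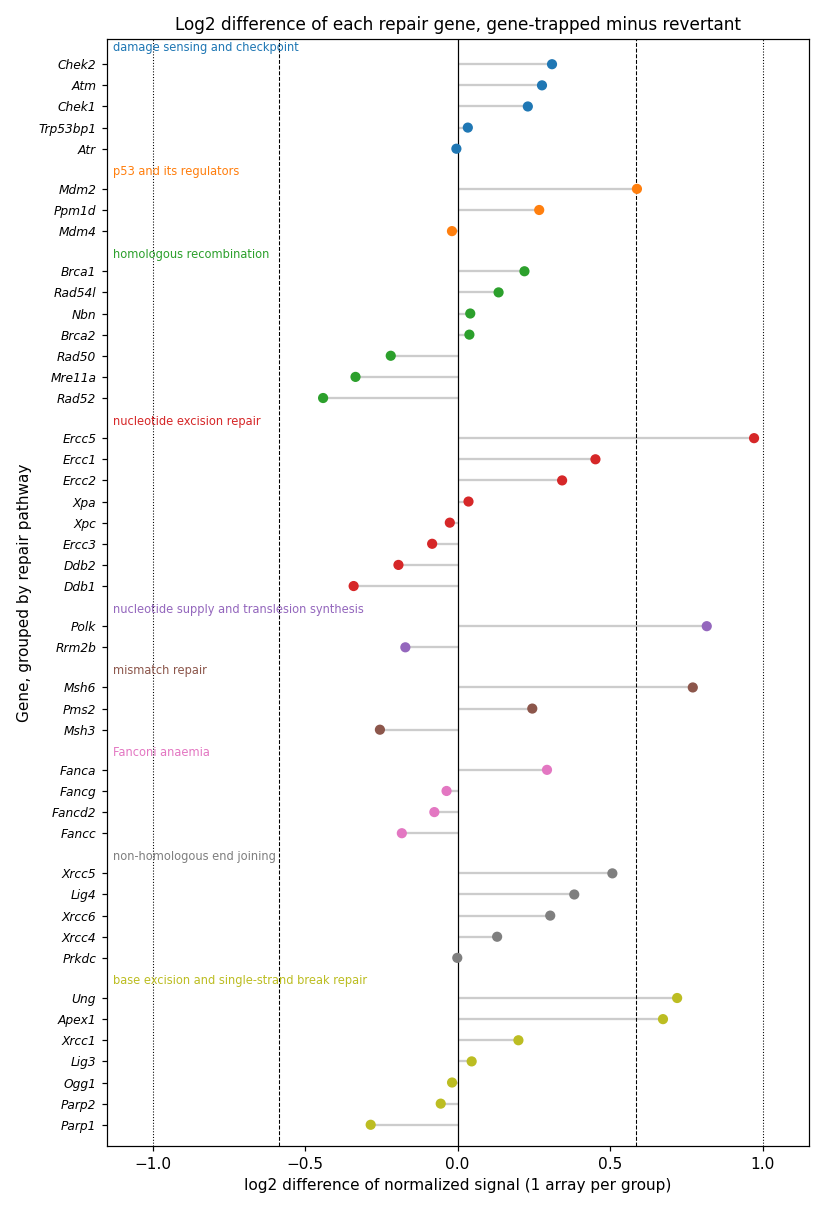
Log2 difference (gene-trapped minus revertant, horizontal axis) of 44 repair genes, 1 point per gene, grouped and coloured by pathway; dashed lines mark 1.5-fold, dotted lines 2-fold. Ercc5, Polk, Msh6, Ung, Apex1 and Mdm2 lie past the upper 1.5-fold line, no gene lies past the lower one, and Rad52 is lowest at -0.44.

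Some promoters are shown because both the highest and the lowest member hold an E2F motif. RefSeq windows of assembly GRCm38.p6 were found for 37 of the 45 genes and were read over the 250 bases before the start site, position -1 being the base next to it. A gene counts once, by any of its windows. An E2F motif, meaning the letters TTCCCGC or one of the variants spelled TTGGCGC, spelled TTCGCGC and spelled TTGCCGC, on either strand, stood in 12 of the 37 (32.4%). Such a motif stood in 14.4% of 10990 named genes above background with a window and in 9.01% of all 27025 genes in the table. For the replication genes that serve S phase the share was 44.4% of 18. The windows of Ercc5 (chr1:44147494-44147743, plus strand, motif at -69), Apex1 (chr14:50924699-50924948, plus strand, motif at -205) and Rad52 (chr6:119902448-119902697, plus strand, motif at -132) read as follows, with the E2F motif in capitals.
Ercc5: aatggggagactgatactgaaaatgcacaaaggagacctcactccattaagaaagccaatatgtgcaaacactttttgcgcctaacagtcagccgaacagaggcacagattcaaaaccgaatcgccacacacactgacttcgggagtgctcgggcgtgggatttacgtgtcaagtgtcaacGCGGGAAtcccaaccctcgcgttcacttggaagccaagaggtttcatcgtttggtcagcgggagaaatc
Apex1: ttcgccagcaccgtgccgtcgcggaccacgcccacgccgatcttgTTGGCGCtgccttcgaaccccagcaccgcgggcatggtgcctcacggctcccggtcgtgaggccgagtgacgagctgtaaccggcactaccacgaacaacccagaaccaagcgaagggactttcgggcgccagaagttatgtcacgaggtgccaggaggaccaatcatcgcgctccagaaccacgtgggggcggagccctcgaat
Rad52: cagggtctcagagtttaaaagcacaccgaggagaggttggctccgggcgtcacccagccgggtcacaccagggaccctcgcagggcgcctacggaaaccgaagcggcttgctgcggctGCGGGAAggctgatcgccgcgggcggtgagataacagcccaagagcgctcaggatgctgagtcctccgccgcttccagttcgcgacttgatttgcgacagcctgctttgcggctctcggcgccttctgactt
No full p53 site, a pair of p53 half-sites up to 13 bases apart on either strand, was found in these windows for any of the 37 genes, and it was found for 0.0666% of all genes in the table. A single half-site stood in 6 of the 37 (16.2%), namely Fanca, Fancg, Polk, Mdm2, Ppm1d and Trp53, and in 8.20% of all genes in the table. The share was 7.35% for named genes above background with a window and 41.2% for 17 p53 targets outside repair. Polk has 2 windows, and the half-site stood only in chr13:96519188-96519437 and not in chr13:96542580-96542829. All windows end at the start site, so p53 sites further downstream were not read. The window of Mdm2 (chr10:117710759-117711008, minus strand), the classical p53 target of the list, is shown with its half-site at -186 in capitals.
Mdm2: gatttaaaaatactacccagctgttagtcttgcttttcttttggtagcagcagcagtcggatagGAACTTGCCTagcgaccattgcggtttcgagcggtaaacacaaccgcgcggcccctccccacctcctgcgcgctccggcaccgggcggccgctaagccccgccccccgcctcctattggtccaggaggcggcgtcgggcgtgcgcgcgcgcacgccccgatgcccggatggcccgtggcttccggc
A matched motif describes the letters of the window and not a site in use, and a missing one says only that these letters are not in the window. Ung and Msh6, which were also higher by 1.5-fold, hold neither motif in their windows.

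Nucleotide excision repair, which removes bulky adducts, held the member with the largest difference. Ercc5 encodes the endonuclease that cuts on the downstream side of a lesion. Its spot signal was 323 on the gene-trapped array, against 190 on the revertant array, although the revertant array was the brighter of the 2 over all probes. After normalization its log2 signal was 8.61 in gene-trapped and 7.64 in revertant cells, a difference of 0.97 (1.96-fold), which ranked 53 from the top of 13714 genes. Over 8 other ways of processing, which changed the scaling, the background correction, a correction for spot position or the source of the values, it ranged between 0.71 and 1.23. Ercc1, the noncatalytic subunit of the endonuclease that cuts on the other side, had spot signals of 419 in gene-trapped and 367 in revertant cells and a difference of 0.45. Its catalytic partner Ercc4, which is not on the list of 45, had -0.10.

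The other excision repair genes lay on both sides of 0. The helicase subunits of TFIIH, the factor that opens DNA around the lesion, had 0.34 (Ercc2) and -0.08 (Ercc3), and Ercc3 turned to 0.39 when the local background was subtracted. The damage-binding pair that recruits repair to ultraviolet lesions was lower in gene-trapped cells in each of these 8 settings, but by less than 1.5-fold in the main one. Ddb1 had spot signals of 1282 in gene-trapped and 1903 in revertant cells and a difference of -0.34. Ddb2 had 26.1 in gene-trapped and 40.6 in revertant cells, with a difference of -0.19. This difference spanned -1.22 in the authors' deposited table to -0.0086 under 75th percentile scaling, where the median of all genes was 0.15. The gene-trapped signal of Ddb2 lay just over the limit of 22.3 that marks background there, and the size of its difference is uncertain. Xpc, the general lesion sensor, had -0.03, and Xpa, which verifies the lesion, had 0.04 and turned to -0.13 under median scaling. Both are smaller than the technical spread of control spots given at the end.

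Base excision repair held a pair of higher members that act in sequence. Ung encodes the glycosylase that removes uracil from DNA, and Apex1 the endonuclease that then cuts the backbone at the emptied site. Ung had spot signals of 694 in gene-trapped and 493 in revertant cells and a difference of 0.72 (1.65-fold). Apex1, the brightest member, had 3055 in gene-trapped and 2321 in revertant cells and a difference of 0.67 (1.59-fold). Both were higher in gene-trapped cells on the raw scale too. Apex1 fell short of 1.5-fold at 0.53 under median scaling and reached 2.60 with the local background subtracted.

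The later steps of the pathway lay within 1.5-fold in the main setting. Xrcc1, the scaffold for single-strand break repair, had 0.20, and 0.75 with the local background subtracted, which is past 1.5-fold. Its partner ligase Lig3 had 0.05, which turned to -0.080 under median scaling and -0.37 with the local background subtracted. Parp1 and Parp2 sense strand breaks and build poly(ADP-ribose) chains. Parp1 had spot signals of 950 in gene-trapped and 1383 in revertant cells and a difference of -0.29, negative in 8 of 8 other settings, and Parp2 had -0.06, which was 0.07 in the authors' deposited table. Ogg1, the glycosylase for oxidised guanine, had -0.02, which turned to 0.0088 under median scaling, with dim spots of 32.6 in gene-trapped and 40.4 in revertant cells. Thus 2 of 7 members of this group were at least 1.5-fold higher and 0 lower, with a group median of 0.05. Of all genes 2.29% were higher and 3.53% lower by that size.

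In mismatch repair the genes of a pair of recognition subunits differed in opposite directions. Msh6 serves mainly the recognition of single mispaired bases, and Msh3 that of larger loops. Msh6 had spot signals of 425 in gene-trapped and 296 in revertant cells and a difference of 0.77 (1.71-fold), between 0.62 and 0.94 in 8 other settings. Msh3 had 87.3 in gene-trapped and 142 in revertant cells and a difference of -0.25, between -0.45 and -0.028. The difference of Msh6 was thus positive and that of Msh3 negative in every one of these settings, while each rests on 1 probe. Pms2, an endonuclease subunit that acts after recognition, had 0.24, and turned to -0.14 with the local background subtracted.

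**Figure D2:**
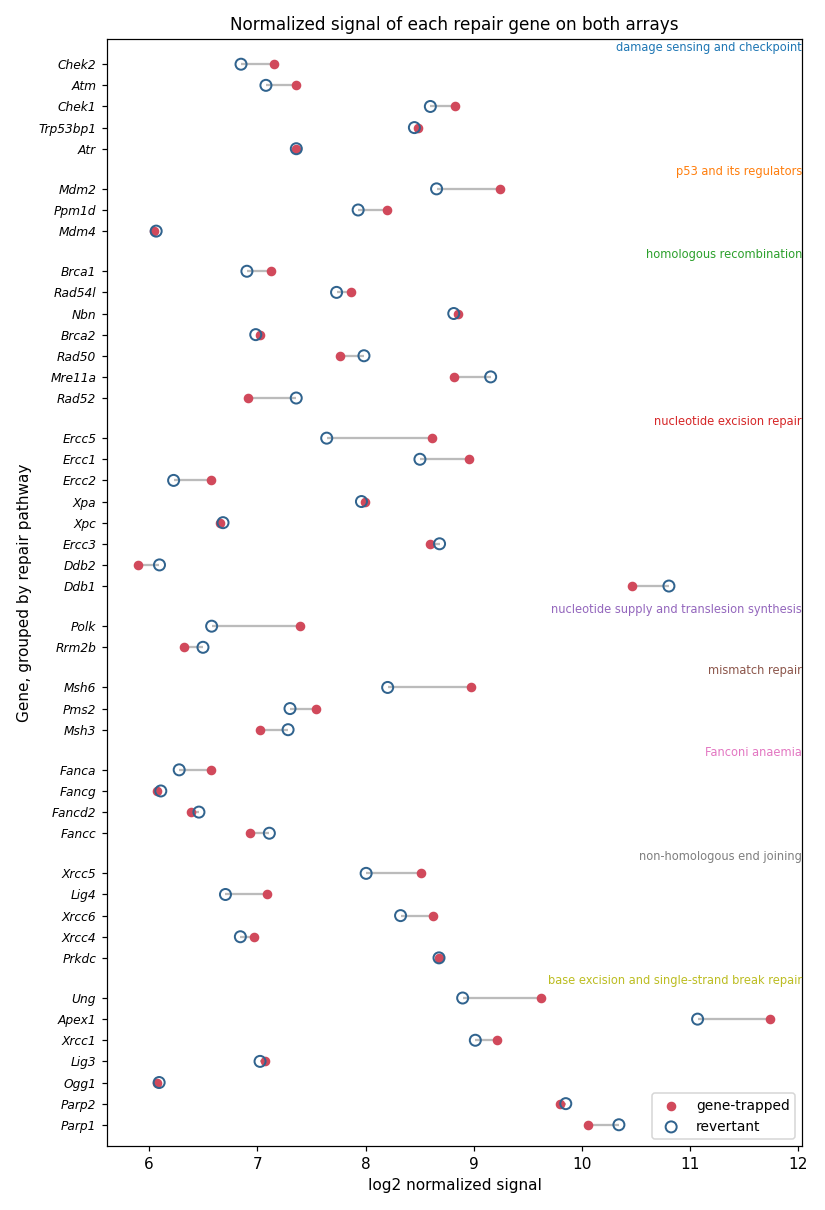
Log2 normalized signal (horizontal axis) of each repair gene on the gene-trapped array (filled circles) and the revertant array (open circles), 1 array each, joined by a line and grouped by pathway. The widest gaps are those of Ercc5, Polk and Msh6, with the gene-trapped point on the right; levels of different genes come from different probes and are not comparable with each other.

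Translesion synthesis and nucleotide supply are represented by 1 gene each. Polk encodes polymerase kappa, which copies past bulky adducts. Its spot signal was 120 in gene-trapped and 72.1 in revertant cells, and its difference of 0.82 (1.76-fold) ranked 99 from the top of all genes. It stayed positive in 8 of 8 other settings, with 0.48 when the local background was subtracted, which is below 1.5-fold. Rrm2b encodes a ribonucleotide reductase subunit that supplies nucleotides for repair and is a p53 target. It had 43.8 in gene-trapped and 65.7 in revertant cells and a difference of -0.17, which turned to 0.23 with the local background subtracted. Rrm2, the subunit used in S phase and a gene of the wider list, had 1383 in gene-trapped and 843 in revertant cells and a difference of 0.93 (1.90-fold).

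The checkpoint genes all lay within 1.5-fold. Chek2, a kinase activated by Atm, had the largest difference of the group at 0.31, with spot signals of 97.3 in gene-trapped and 94.7 in revertant cells. Atm had 0.28, and both were positive in 8 of 8 other settings. Chek1, the kinase downstream of Atr, had 0.23 and turned to -0.051 with the local background subtracted. Atr itself had -0.0043, and Trp53bp1, which gathers at broken ends, had 0.03 and turned to -0.093 under median scaling. None of these 5 genes reached 1.5-fold, and their median was 0.23.

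Of the p53 regulators Mdm2 alone passed 1.5-fold. Mdm2 is the ubiquitin ligase that keeps p53 low and is itself induced by p53. It had spot signals of 527 in gene-trapped and 414 in revertant cells and a difference of 0.59 (1.503-fold), which is the smallest of the 6 and just inside the limit; Xrcc5 at 1.42-fold stood just outside. Under median scaling Mdm2 had 0.47, and with the local background subtracted 0.40. Ppm1d, a phosphatase that switches off damage signalling, had 0.27 and turned to -0.050 with the local background subtracted. Mdm4, the inhibitory relative of Mdm2, had -0.02, which turned to 0.02 under median scaling, with dim spots of 31.5 in gene-trapped and 38.8 in revertant cells.

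The members listed here as p53 targets, by textbook role, lay on both sides of 0. This subgroup of 6, some of whose members (Ddb2 and Xpc) are known as targets mainly from human cells, held Polk (0.82), Mdm2 (0.59) and Ppm1d (0.27) above 0. Xpc (-0.03), Rrm2b (-0.17) and Ddb2 (-0.19) lay below it. Its median was 0.12, and 0.0053 under median scaling, beside 0.04 for the other 38 members. These medians depend on which members are listed as targets, and Ercc5 (0.97) was counted among the 38. Of 21 measured p53 targets outside repair, 12 (57.1%) were at least 1.5-fold higher and 0 lower, against 2.29% and 3.53% of all genes. Their median was 0.81, and 9 did not reach 1.5-fold. Among the 9, Sesn1 (-0.086) and Gadd45a (-0.016) lay below 0, and both turned positive with the local background subtracted. Ccng1 had 1.85, Phlda3 1.74, the cell cycle inhibitor gene Cdkn1a 1.501 and Perp 1.33. The direction of these outside targets was known from earlier results of the same arrays when the list was drawn up, so their count is context and not independent evidence.

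Double-strand breaks are repaired by end joining or by recombination. The end joining members were mostly above 0, with 4 of 5 above the median of all genes and a group median of 0.30. Of 5 other measured genes of this pathway, which are on the wider list, 3 lay above 0 and 2 below. Their median was 0.02. Xrcc5 and Xrcc6 encode the Ku proteins that cap broken ends. Xrcc5 had spot signals of 300.4 in gene-trapped and 255 in revertant cells and a difference of 0.51, and Xrcc6 had 0.30. Lig4, the ligase of the pathway, had 0.38 and its cofactor gene Xrcc4 0.13, which turned to -0.081 with the local background subtracted. Prkdc, the catalytic subunit of the DNA-dependent kinase that Ku recruits, had -0.0013 and spanned -0.47 to 0.06. Xrcc5, Xrcc6 and Lig4 were positive in 8 of 8 other settings, and none of the 5 members reached 1.5-fold.

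Homologous recombination, the route that copies from a sister chromatid, held the lowest member. Rad52, an annealing protein, had spot signals of 78.9 in gene-trapped and 151 in revertant cells and a difference of -0.44, between -0.75 and -0.37 in 8 other settings. Mre11a, Rad50 and Nbn encode the complex that first binds and trims a break. Mre11a had 378 in gene-trapped and 591 in revertant cells and a difference of -0.33. Rad50 had -0.22, and both were negative in 8 of 8 other settings, whereas Nbn had 0.04 and turned to -0.098 under median scaling. Brca1, which promotes end resection, had 0.22 and Brca2, which acts after resection, 0.04. Rad54l, a motor protein of strand exchange, had 0.13. Under median scaling Brca2 turned to -0.078 and Rad54l to -0.029. The median of the 7 genes was 0.04.

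The Fanconi anaemia genes, which unhook crosslinks between strands, differed little. Fanca, a core complex subunit, had spot signals of 56.1 in gene-trapped and 51.1 in revertant cells and a difference of 0.29. Fancc and Fancg, subunits of the same complex, had -0.18 and -0.04, and Fancd2, which the complex ubiquitinates, had -0.08. Fanca was positive in 8 of 8 other settings. With the local background subtracted Fancc turned to 0.08 and Fancg to 0.04.

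A wider list of 105 other repair genes had 94 with a probe, 93 of them above background on both arrays. By the 1.5-fold measure 5 (5.38%) lay higher in gene-trapped cells and 1 (1.08%) lower, with a median of 0.11. Of all genes 2.29% were higher and 3.53% lower. Among all genes at or above the median brightness the shares were 4.39% and 6.74%, so the higher share of the wider list is near that of bright genes. The highest were Rrm2, the exonuclease gene Exo1 (0.88), the Bloom helicase gene Blm (0.75), the centrin gene Cetn2 (0.59), whose product helps Xpc, and the flap endonuclease gene Fen1 (0.59). Exo1 had spot signals of 268 in gene-trapped and 167 in revertant cells, and Fen1 had 819 in gene-trapped and 636 in revertant cells. Fen1 takes part in base excision repair downstream of Apex1, as does the polymerase gene Polb, which had 0.46. Of the 15 measured base excision genes of the wider list, 10 lay above 0 and 5 below. Their median was 0.09 and the lowest value -0.58.

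At the low end of the wider list stood a pair of genes that mark damaged chromatin. H2afx encodes the histone variant phosphorylated around breaks, and Mdc1 the protein that reads this mark. H2afx had spot signals of 220.0 in gene-trapped and 614 in revertant cells and a difference of -1.08 (2.11-fold lower), the one repair gene of either list past 2-fold. It was -0.52 with the local background subtracted. Mdc1 had 62.3 in gene-trapped and 122 in revertant cells and a difference of -0.45. These 2 go against most of their group, as 11 of the 14 measured sensing and checkpoint genes of the wider list lay above 0. The median of the 14 was 0.16. The glycosylase genes Mutyh and Neil3 had -0.58 and -0.33, both on dim spots, and Alkbh3, which reverses alkylation, had -0.52 and turned to 0.17 with the local background subtracted.

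**Figure D3:**
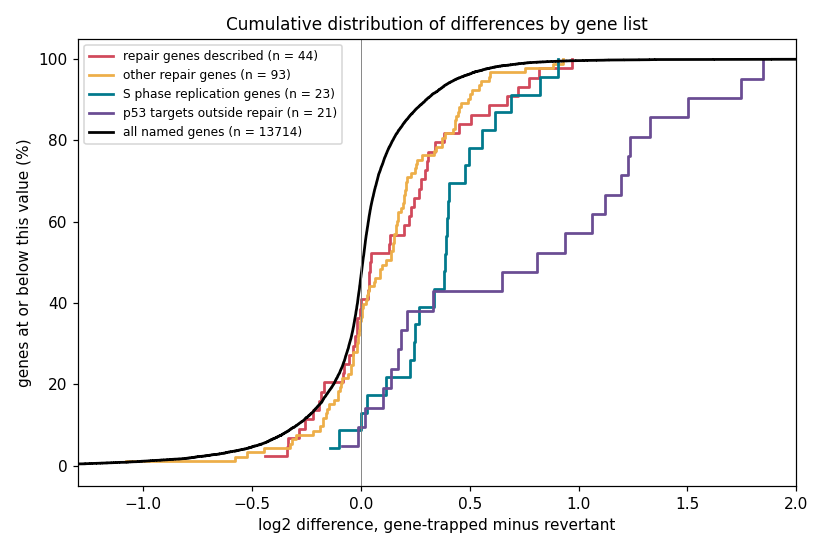
Cumulative share of genes (vertical axis, %) at or below each log2 difference (horizontal axis, gene-trapped minus revertant) for 44 repair genes, 93 other repair genes, 23 replication genes, 21 p53 targets outside repair and 13714 named genes, in the main setting. The repair curves have medians of 0.04 and 0.11, left of the replication genes (0.38) and of the p53 targets (0.81).

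Replication genes that serve S phase are given for comparison. Of 23 measured, 20 lay above 0, with a median of 0.38. By 1.5-fold 4 (17.4%) were higher and 0 lower, against 2.29% and 3.53% of all genes. The summed normalized signal of the replication genes was 35008 in gene-trapped and 27440 in revertant cells, against 17029 and 14954 for the 44 repair genes. Of the repair sums, 6956 and 5559 came from the base excision group, which holds Apex1, the brightest member. The sums were lower in gene-trapped cells for recombination (1757 against 1898), nucleotide excision repair (3197 against 3256) and Fanconi anaemia genes (368 against 373), and higher for the other groups. Bright genes weigh most in such sums, and Ddb1 (-0.34) is the brightest of the excision repair genes, of which 4 of 8 lay above 0. Of the 7 recombination genes 4 lay above 0. The sums also hold the offset of 50 added to each gene, which narrows the relative gap of dim groups such as the Fanconi genes. The cyclin genes Ccne1 and Ccne2 had 0.90 and 0.82, the thymidylate synthase gene Tyms 0.69 and Gins1 0.62. Cdt1 (-0.14), Cdc45 (-0.10) and Mcm3 (-0.0012) lay below 0, and all 3 turned positive with the local background subtracted. The part of replication in the repair differences was not tested.

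**Figure D4:**
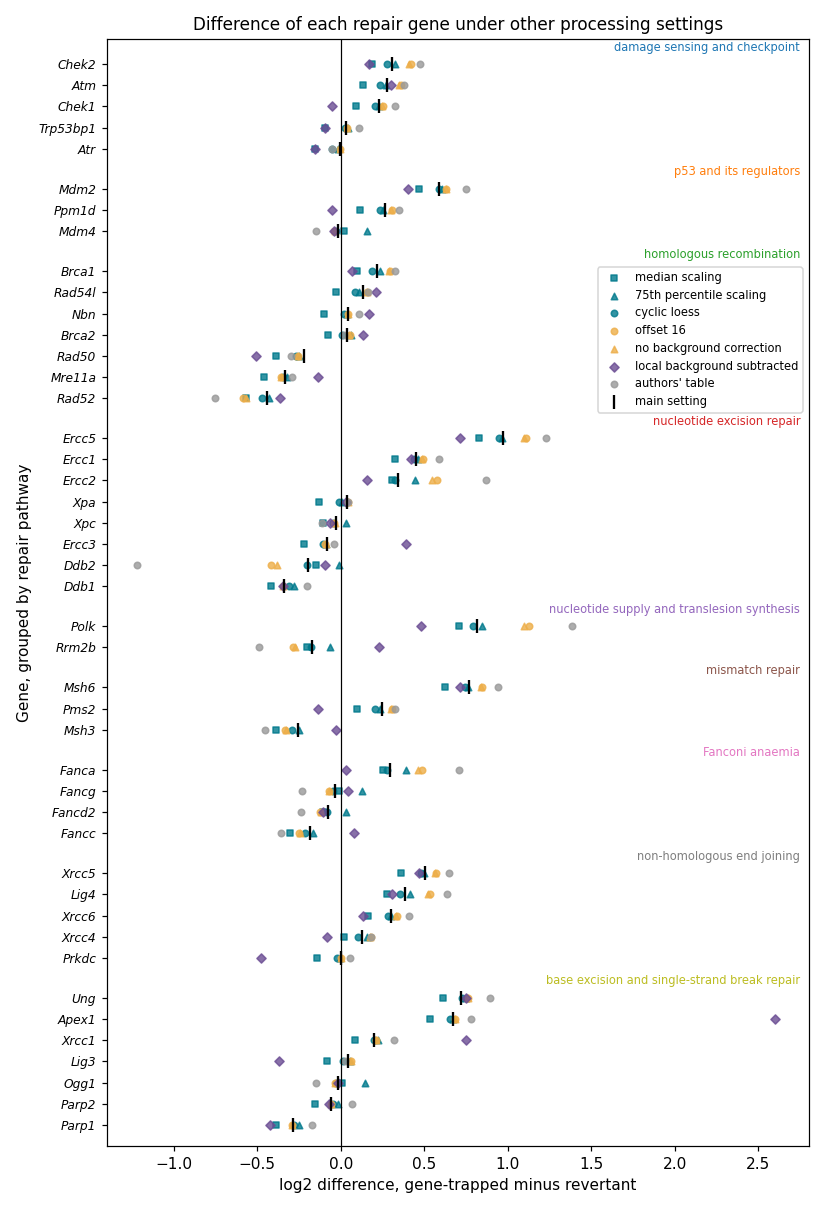
Log2 difference (gene-trapped minus revertant, horizontal axis) of each repair gene in the main setting (bar) and under 7 other settings (symbols), grouped by pathway. Ercc5, Polk, Msh6, Ung, Apex1 and Mdm2 stay right of 0 in all 7 and Rad52, Mre11a, Rad50 and Ddb1 left of it, while the subtraction of local background moves Apex1 to 2.60 and Ercc3 to 0.39.

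Of the whole arrays, the median probe signal was 38.6 in gene-trapped and 47.5 in revertant cells, and the 2 kinds of positive control spot had SDs of the log2 ratio of 0.108 and 0.0989, a technical spread between 24 spots each. The disrupted gene AU019823 (Nkapd1 in RefSeq) had -0.39, but where its probe lies relative to the trap is unknown, so it does not check the labels. All 8 early mesoderm markers were above background on both arrays, with a summed signal of 5390 in gene-trapped and 3554 in revertant cells and a median difference of 0.50. Of these 8, 5 lay above 0, namely Mixl1 (1.99), Etv2 (1.305), T (0.76), Mesp1 (0.51) and Eomes (0.48), and 3 below it, namely Kdr (-0.65), Hand1 (-0.44) and Pdgfra (-0.02). Of 10 stromal markers 8 were above background on both arrays, Dcn and Fbln2 being the exceptions. The summed signal of all 10 was 1053 in gene-trapped and 2073 in revertant cells. All 4 measured pluripotency markers, 4 of 5 endothelial, 3 of 4 haematopoietic and 2 of 5 endoderm markers were also above background; Cdh5 (on the gene-trapped array alone), Ptprc, Afp, Ttr and Apoa1 were not. The summed endothelial signal was 344 in gene-trapped and 625 in revertant cells, and the haematopoietic one 266 in gene-trapped and 371 in revertant cells. The pluripotency sum was 370 in gene-trapped and 358 in revertant cells, and the endoderm sum 282 in gene-trapped and 283 in revertant cells. Each sum here covers all measured markers of its type, also those below background, and holds the offset of 50 added to each gene. That offset narrows the relative gap between sums of dim markers. For markers above background the median difference was -0.36 (stromal), -0.91 (endothelial), -0.72 (haematopoietic), 0.05 (pluripotency) and -0.02 (endoderm). The part of these cell types in the repair differences was not tested, and in such bulk RNA fewer cells of a type cannot be told from less RNA per cell.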

How the data were processed

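RNA from Flk-1-positive sorted cells of 2 samples, 1 gene-trapped and 1 revertant, was hybridised to 1 one-colour mouse array each. The deposited scanner files hold, per the file headers, the median intensity of each spot and a local background intensity; the scanner model and any genome build were not given in the sources used here. Per the file headers each spot was read at several gains that were joined into 1 value. A deposited value table by the authors holds linear intensity with no stated method; set against the scanner files, it was the spot median less 20.1 (gene-trapped) or 22.4 (revertant), scaled to an array median of 25.

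Each array had 27456 spots and 23471 probes were used; control, blank and 2 spots marked bad by the scanner were left out. Background was corrected with limma 3.58.1 (R 4.3.3; normexp fitted on the spot medians of all spots, no local background subtracted, offset 50), arrays were set to equal distributions (quantile), and log2 taken. Differences were compared by size in 13714 named genes above the blank mean plus 2 SD on both arrays; 19388 (82.6%) and 19703 (83.9%) of the probes passed on the gene-trapped and revertant array. Of the probes, 16629 had 1 gene symbol in the platform annotation, 6842 none and 0 several. For 16569 probes the symbol matched a RefSeq symbol or synonym. The brightest probe stood for a gene. Background correction and normalization were tested on simulated data.

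All members are named; raw signals are given for members at least 1.5-fold apart, for the largest difference in each pathway and for some others, chosen after their values were seen. From the wider list the 5 largest differences in each direction are named, and from other lists up to 4. Polb, Ercc4, Cdt1, Cdc45, Mcm3, Sesn1, Gadd45a, the mesoderm markers beyond 4 and the markers without values were named after their values were seen. The members and all lists were chosen with earlier results of these data known. With 1 array a group no test was made. Alternatives changed the scaling, background correction, filter, probe rule, spot position and value source. Genes without a probe in the annotation used, such as Trp53, have no expression value here. Promoters came from RefSeq (GRCm38.p6).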

Additional observations from a re-analysis of the deposited data

Results flagged for a closer look

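The scanner's local background column, which no comparison uses in its main form, was far from flat. Its median around the spots of the repair genes was 72.7 on the gene-trapped array and 106 on the revertant array, against 15.6 and 14.2 around blank spots. The column therefore carries signal above the level of the blank spots that serve as its control, and its subtraction moved single genes, as given for Apex1, Ercc3 and Prkdc.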

How the results depend on the processing

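Of 484 values of the repair genes under 11 alternatives, 382 moved by less than the technical spread of control spots and 102 by more. Among genes at least 1.5-fold apart, 0 turned sign. The other filters and the mean over probes cannot change a member, which has 1 probe. Their values are counted among the 382, and only 8 of the 11 alternatives could move a member. The number of members at least 2-fold higher was 0 in the main setting, 2 with an offset of 16, 2 with no background correction, 1 with the local background subtracted (Apex1) and 2 in the authors' deposited table, which also had 1 member at least 2-fold lower (Ddb2). At 1.5-fold the authors' table had 11 members higher and 2 lower, adding Ercc1, Ercc2, Fanca, Lig4 and Xrcc5 above and Ddb2 and Rad52 below, against 8.83% and 10.9% of 14163 genes. The median of the p53-target members was 0.0053 under median scaling. The median of all members ranged from -0.00097 under median scaling to 0.14 under 75th percentile scaling, and the number above the all-gene median from 21 to 28. The 0.14 stands beside 0.15 for all genes in that setting, whereas in the authors' table the members had 0.11 beside 0.02. Over all genes, 46 were 2-fold higher in the main setting, against 87 with offset 16, 84 uncorrected, 280 with local background and 284 in the authors' table; 148 were lower, against 238, 227 and 570 with offset 16, uncorrected and in the authors' table. At 1.5-fold, 314 were higher, against 171 (median scaling), 535, 512, 669 and 1250, and 484 were lower, against 740 (offset 16) and 1546 (authors' table). Local background gave 669 higher and 538 lower. The cause of these shifts was not tested. No paired analysis was possible because there is only 1 array in either group. Dim genes such as Ddb2, Mdm4 and Ogg1 lie close to background, which limits what their differences show, and every value rests on 1 probe and 1 array a group.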
